A study of Drosophila melanogaster with 31 samples.

Results

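A set of 10 genes of lipid storage, synthesis and uptake was followed in Drosophila melanogaster ovaries by RNA-seq of poly(A) transcripts. Members were the rows of the deposited expression table whose symbol was Lsd-1, Lsd-2, Jabba, mdy, bmm, LpR1, LpR2, FASN1, ACC or SREBP, and all 10 of the 10 listed symbols were among the 9251 genes measured. Levels are TPM, the share of a transcript in the library scaled by its length, so levels of different genes can be set side by side. All 10 genes were at 1 TPM or more in all 31 libraries and passed the filter on low values. The rule goes by symbol and uses no measured value.

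A growing oocyte is provisioned with neutral lipid, which is kept in lipid droplets, organelles with a core of triglyceride and sterol ester under a single layer of phospholipid. Lipid reaches the ovary largely as lipoprotein particles from the fat body, and receptors of the low-density lipoprotein receptor family take part in its uptake, while fatty acids can also be made within the tissue from acetyl-CoA. Proteins on the droplet surface control access of lipases, and nurse cells and oocyte carry many droplets from mid-oogenesis on.

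Total mRNA was measured in 8 groups of 2 libraries. Adult and young wild type carried UAS-Dcr-2.D, w[1118] and the GAL4-nos.NGT driver, and differed in age, 1 to 3 days against 0 to 3 hours after eclosion. All other ovaries were also 1 to 3 days old. The tst mutant was tstMB10212 over the deficiency Df(3R)Exel9013, and tst RNAi was UAS-Dcr2 with nosGAL4 driving the hairpin, which acts in germ cells and not in the somatic cells of the ovary. The label of the tst mutant names neither the driver nor the Dcr-2 transgene that its wild-type controls carry. The pelo mutant was pelo1/pelo1 against pelo1/CyO, and the hfp mutant was hfp9/hfp9 against hfp9/TM2. Twister is a helicase of the Ski complex, which feeds mRNA to the exosome, Pelota rescues stalled ribosomes, and hfp encodes a splicing regulator. A further 12 libraries were input and polysome RNA, 2 preparations each from controls, from pelo1/pelo1 and from tst RNAi. Control preparation 1 had the wild-type driver genotype and control preparation 2 was pelo1/CyO, so these controls are not of a single genotype. The last 3 libraries were single ones, nosGAL4-driven bam RNAi input, bam RNAi polysome and a bam{delta}86 mutant, in which germ cells stop before the cyst divisions are finished. The labels do not say that the 2 libraries of a group came from separate animals, so p values measure the spread between these libraries only. The files give no read counts, so the depth behind a TPM value is unknown.

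Some libraries stood apart. Pelo heterozygote 1, pelo mutant 1 and hfp mutant 1 differed from their partners in most members, as the values below show. The hfp heterozygote libraries also differed, by 2.85-fold for Lsd-2 and 2.04-fold for LpR2, but by 1.16-fold for Lsd-1 and 1.06-fold for LpR1. The library labelled bam RNAi polysome held 480 TPM of osk, an oocyte gene, against 2.46 TPM in its input, and 18.9 against 3.10 TPM of bam. The bam mutant library held 1450 TPM of Lsp2, a larval serum protein of the fat body, against 61.9 TPM in hfp mutant 1 and at most 10.7 TPM in every other library. Adult wild type held 35.3 and 39.6 TPM of tst itself, its mutant 6.34 and 8.62 TPM, and tst RNAi 6.77 and 11.7 TPM, differences that missed the threshold (limma adjusted p = 0.0522 and 0.168) but passed with a replicate block (0.00394 and 0.0145) and with library medians made equal (0.0129 and 0.0408). Inputs of tst RNAi held 18.0 and 14.4 TPM of tst against 32.4 and 30.3 TPM in control inputs (log2 fold change -0.92 ± 0.29, limma adjusted p = 0.0256), a call lost with equal library medians (-0.48, adjusted p = 0.197). The pelo mutant held 10.8 and 44.6 TPM of pelo against 45.1 and 90.5 TPM, and the hfp mutant 9.29 and 20.8 TPM of hfp against 25.8 and 48.1 TPM (limma adjusted p = 0.383 and 0.449, and 0.108 and 0.0265 with the block). In these whole ovaries, a lower level can mean fewer cells of a type or less RNA per cell, and these cannot be told apart. Late follicle cell (eggshell) genes summed to 70718 to 88914 TPM in adults of wild type, 15467 to 17759 TPM in tst mutants and 247 to 341 TPM in young wild type.

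In the RefSeq annotation of Release 6, the assembly that dm6 stands for, the members lie on all major chromosome arms. Lsd-1 lies at chr3R:23763857-23766662, beside tst at chr3R:23768399-23772859. LpR2 at chr3R:25698727-25740465 and LpR1 at chr3R:25741348-25763105 are direct neighbours. The others are Lsd-2 (chrX:15069127-15076220), Jabba (chr2R:18757074-18761082), mdy (chr2L:16816660-16826964), bmm (chr3L:14776496-14786412), FASN1 (chr2L:3056598-3068177), ACC (chr2R:7974115-7991862) and SREBP (chr3L:19793935-19798979). Several overlap other genes, and reads of such stretches cannot be told apart where strand was not used. Cse1 and CG13280 overlap mdy over 4052 and 4434 bases, Nup44A overlaps ACC over 2822 bases, and CG10214 overlaps Lsd-1 over 144 bases. The remaining overlaps were those of a long non-coding RNA with LpR2 over 663 bases, of mir-33 with SREBP over 99 bases, and of 10 bases or fewer for Jabba and SREBP.

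Levels in adult wild type spanned a wide range. Among the droplet coat genes, Jabba, which anchors histones on droplets of the early embryo, was at 770 and 707 TPM and above 98.1% of all genes. Lsd-2 (perilipin 2), a coat protein that protects stored triglyceride, was at 381 and 383 TPM, above 96.2% of genes. Lsd-1 (perilipin 1), a coat protein that binds lipases and is best known from the fat body, was at 4.15 and 6.04 TPM, above 27.8% of genes. Transcripts of Jabba and Lsd-2 were thus far more abundant than those of Lsd-1, and the TPM ratio of Lsd-1 to Lsd-2 was 0.0109 and 0.0158. Between these extremes were LpR2 at 127 ± 12.2 TPM (SD, n = 2), SREBP at 95.6 ± 2.69, FASN1 at 93.3 ± 8.90, bmm at 82.7 ± 7.29, ACC at 56.8 ± 3.17, mdy at 38.3 ± 3.93 and LpR1 at 16.8 ± 5.71 TPM.

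**Figure D1:**
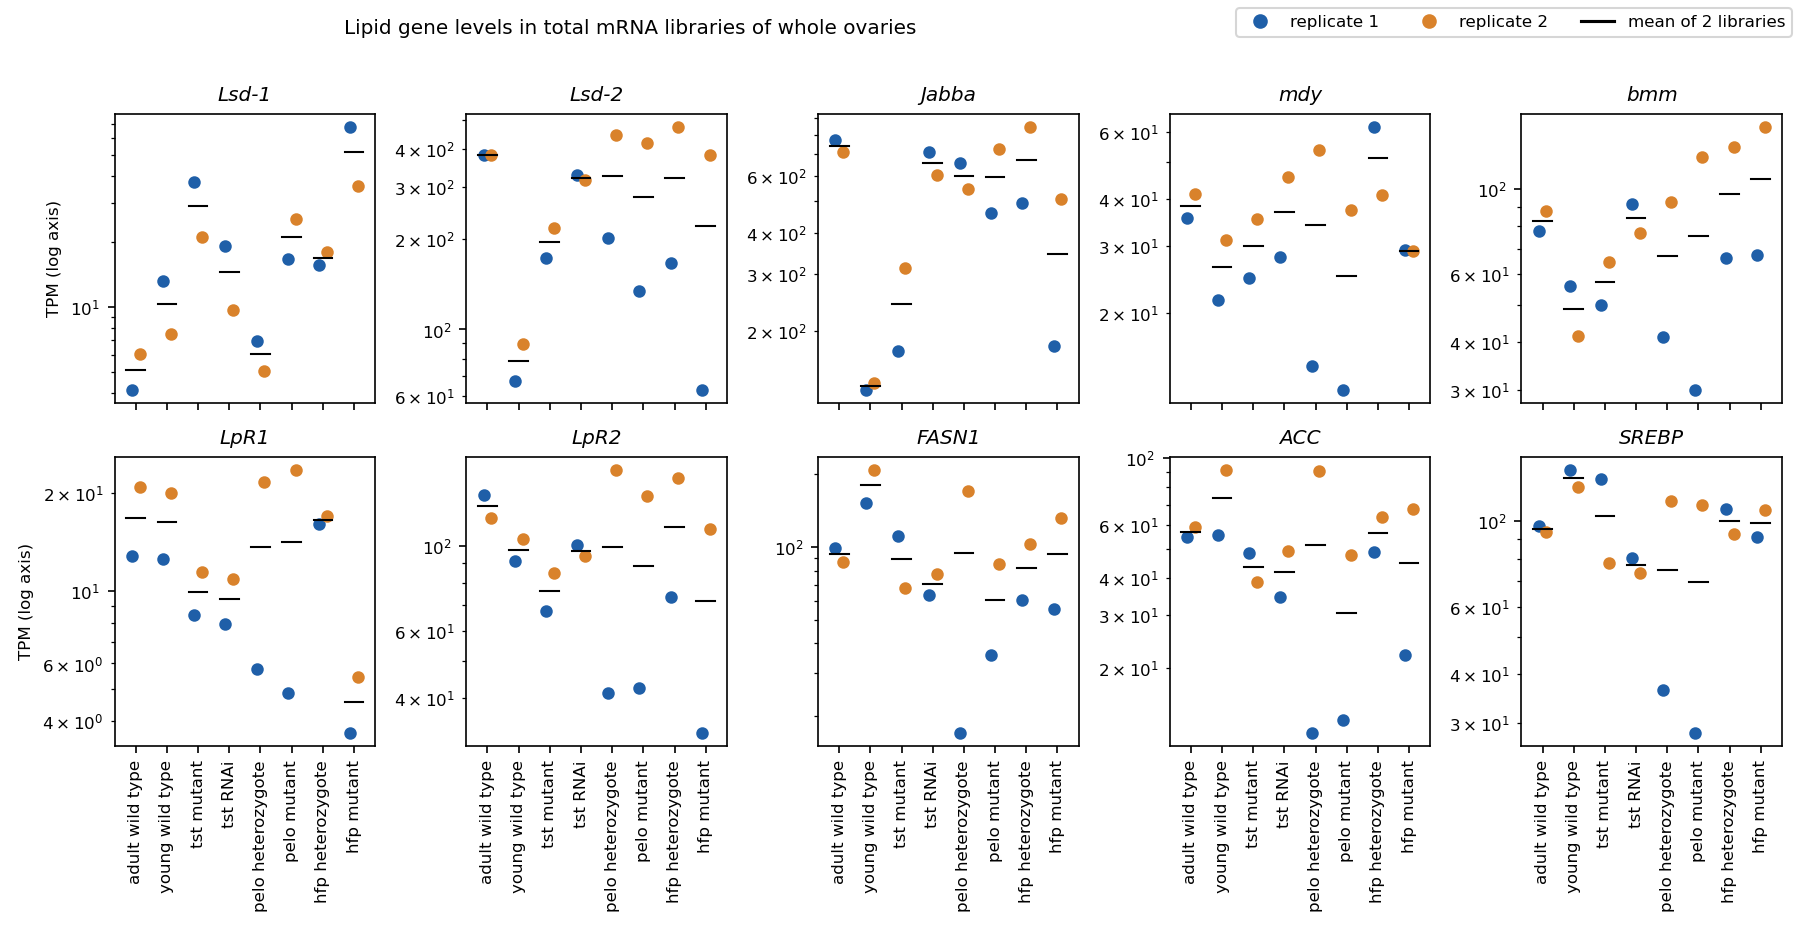
Levels of the 10 lipid genes in total mRNA of whole ovaries, in TPM on log axes that differ between panels, for 8 groups of 2 libraries (points, coloured by replicate number) with their mean (bar). Lsd-1 was at 37.5 and 21.0 TPM in the tst mutant against 4.15 and 6.04 TPM in adult wild type, and Jabba was at 133 and 139 TPM in young wild type against 770 and 707 TPM in adult wild type.

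Across the groups, calls were made with limma at a Benjamini-Hochberg adjusted p under 0.05 over all genes. In young against adult wild type, 0 members rose and 1 fell, where 7.93% of all tested genes rose and 3.16% fell. For the tst mutant, compared with adult wild type, 1 member rose and 0 fell, against 3.55% and 0.677% of all genes. No member passed in tst RNAi against adult wild type, tst mutant against tst RNAi, pelo mutant against its heterozygote or hfp mutant against its heterozygote, where 1.02%, 1.03%, 0.226% and 0.993% of all genes were called in either direction. Inputs were fitted together with polysomes, at a smaller median standard error (0.303 against 0.472 in total mRNA). There 1 member rose and 5 fell in tst RNAi inputs against control inputs, beside 18.7% and 21.3% of all genes. In pelo mutant inputs 1 rose and 2 fell, beside 10.3% and 1.85% of all genes. The median log2 fold change of the 10 members was -0.75 in tst RNAi inputs and -0.44 in pelo mutant inputs, and that of all genes was -0.16 and -0.14. The counts above for total mRNA leave out any pairing of libraries by replicate number. With that number as a block, Jabba and Lsd-2 fell in young wild type, where 12.4% of all genes rose and 8.19% fell. Lsd-1 rose and Jabba fell in the tst mutant, where 8.75% rose and 2.47% fell. The other total mRNA comparisons still had no member called. The young, tst mutant and tst RNAi comparisons share the adult wild-type libraries, and both input comparisons share the control inputs. Whether libraries of 2 groups overlapped is given below as a description only. The share of all genes without overlap was not counted.

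**Figure D2:**
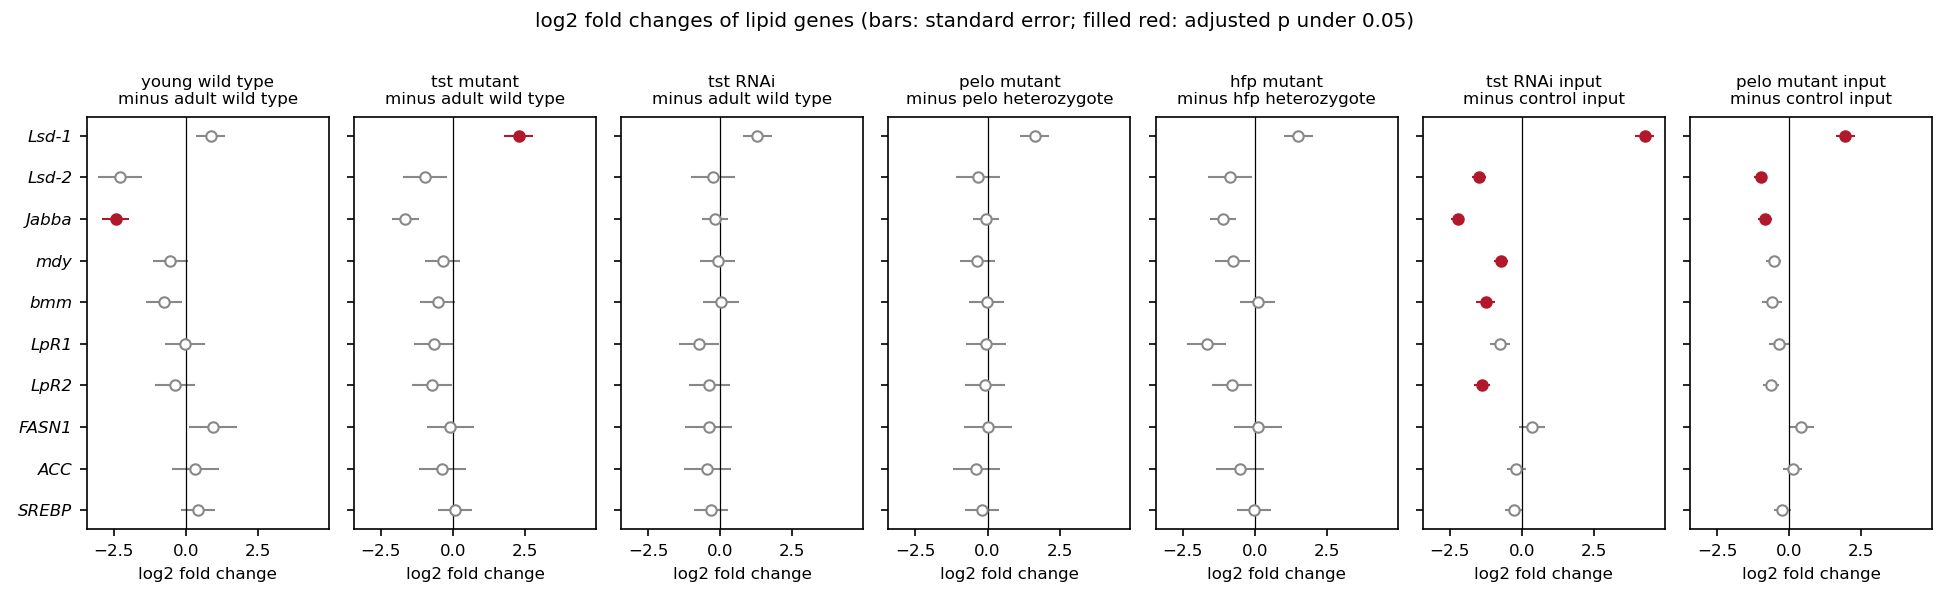
Log2 fold change of each lipid gene (points, on the log2(TPM + 1) scale) with its standard error (bars) in 7 comparisons of total mRNA or input RNA, with filled red points for an adjusted p under 0.05. Lsd-1 lies to the right of 0 in every panel, from 0.87 in young wild type to 4.25 in tst RNAi inputs, and Lsd-2 and Jabba lie to the left of 0.

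Lsd-1 rose in the tst mutant. It was at 37.5 and 21.0 TPM there, at 19.1 and 9.71 TPM in tst RNAi and at 13.1 and 7.52 TPM in young wild type. Every library of these 3 groups lay above both adult wild-type libraries. The log2 fold change of the tst mutant against adult wild type was 2.27 ± 0.50 (SE; limma adjusted p = 0.0281), and a block for the replicate number gave 0.0116, in a fit where 8.75% of all genes rose and 2.47% fell. For tst RNAi it was 1.29 ± 0.50 (adjusted p = 0.415) and for young wild type 0.87 ± 0.50 (adjusted p = 0.324), both short of the threshold. The tst mutant and tst RNAi differed by 0.99 ± 0.50 (adjusted p = 0.555; 95% interval -0.10 to 2.08). Without tst mutant 1, adult wild type 1 or adult wild type 2, the adjusted p of the rise was 0.296, 0.226 and 0.129, with log2 fold changes of 1.87 to 2.50. Replicate 1 and replicate 2 carry different strand labels in these groups, and the rise was 2.90 within replicate number 1 and 1.64 within number 2.

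Lsd-1 also stood higher in the other mutants without passing the test. The pelo mutant had 16.6 and 25.4 TPM against 6.97 and 5.07 TPM in its heterozygote (log2 fold change 1.63 ± 0.50, adjusted p = 0.279). The hfp mutant had 67.6 and 36.1 TPM against 15.6 and 18.0 TPM (1.51 ± 0.50, adjusted p = 0.239). In both pairs the groups did not overlap, which was not counted over all genes. Muscle sheath markers summed to 2040 to 2145 TPM in the pelo mutant against 286 to 867 TPM, and to 1585 to 2441 TPM in the hfp mutant against 435 to 585 TPM. Fat body markers summed to 144 to 263 TPM against 61.8 to 123 TPM for pelo and to 117 to 266 TPM against 81.8 to 94.5 TPM for hfp, and their part in the Lsd-1 levels was not tested. The hfp heterozygote itself was above adult wild type and the pelo heterozygote, and hfp mutant 1 held the most Lsd-1 of the total mRNA libraries, at a ratio to Lsd-2 of 1.07.

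In inputs, Lsd-1 rose in both mutant groups. It was at 106 and 92.1 TPM in tst RNAi and at 18.6 and 19.9 TPM in the pelo mutant, against 2.92 and 5.98 TPM in control inputs. The log2 fold changes were 4.25 ± 0.32 (limma adjusted p = 1.22e-05) and 1.95 ± 0.32 (adjusted p = 0.00215). The deficiency of the tst mutant is not part of the tst RNAi genotype. The tst RNAi inputs lay far above the tst RNAi total mRNA libraries of the same label, and their eggshell sum was 7273 to 8467 TPM against 42232 to 62423 TPM in those libraries.

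Summed markers of the fat body, where Lsd-1 is abundant, and of other somatic cells were also higher in the mutant inputs. The 13 fat body markers summed to 219 to 239 TPM in tst RNAi inputs and 236 to 267 TPM in pelo mutant inputs, against 65.2 to 76.8 TPM in control inputs. In tst RNAi inputs most of the sum was Obp99a, at 170 and 194 TPM. That sum thus rests mainly on 1 gene, and it does not show that the other markers were higher there. Of the other listed markers in these inputs Fbp2 was at 0 in both libraries, Fbp1 at 0.05 and 0.14 TPM and Lsp2 at 6.82 and 5.51 TPM. These genes were named after their values were seen, and the remaining markers of the list are not given singly here. In total mRNA the same list summed to 183 to 593 TPM for the tst mutant, 129 to 348 TPM for tst RNAi and 102 to 111 TPM for adult wild type, with the higher value in replicate 1 of each. Lsp1beta was at 42.5 TPM in tst mutant 1 and at 1.94 TPM in tst mutant 2. Muscle sheath markers summed to 5655 to 5722 TPM in tst RNAi inputs, 3478 to 4573 TPM in pelo mutant inputs and 507 to 582 TPM in control inputs, and to 1589 to 2690 TPM in the tst mutant against 446 to 577 TPM in adult wild type. Hemocyte markers summed to 1000 to 1241 TPM in tst RNAi inputs and 454 to 720 TPM in pelo mutant inputs, against 111 to 123 TPM in control inputs, and early follicle cell markers to 409 to 470 TPM and 152 to 215 TPM against 121 to 122 TPM. Germline markers were lower, at 1105 to 1243 TPM and 1594 to 1957 TPM against 2590 to 3187 TPM. Young wild type held 5584 to 7266 TPM of muscle sheath, 1973 to 2256 TPM of hemocyte and 237 to 379 TPM of fat body markers. Its Lsd-1 was at 13.1 and 7.52 TPM. In total mRNA of tst RNAi, muscle sheath markers summed to 3023 to 3151 TPM. The part of these cell types in the rise of Lsd-1, and in the lower levels of other members given below, was not tested.

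Lsd-1 lies beside tst, and the tst mutant carries 1 chromosome with a deficiency there, whose extent is not given in the sources used here. Of the 6 nearest tested genes on each side of tst, Lsd-1 starts 4.54 kb from the start of tst. The 11 others had log2 fold changes of -1.49 to 0.85 in the tst mutant against adult wild type, 8 of them below 0, and none passed the test. CG10217 and SdhD, the next genes beyond Lsd-1, were at -1.49 ± 0.42 (adjusted p = 0.0659) and -0.89 ± 0.29 (adjusted p = 0.107), and both fell once replicate number was a block (adjusted p = 0.0188 and 0.0172), CG10217 also with equal library medians (0.0146). CG10217 fell as much in young wild type, whose label names no deficiency (-1.43 ± 0.42, limma adjusted p = 0.0462). CG10214 and CG10375, between Lsd-1 and tst, were at -0.47 ± 0.36 and -0.54 ± 0.57. In tst RNAi the 11 genes had log2 fold changes of -0.32 to 0.33. Lsd-1 was thus the gene of the 12 with the highest log2 fold change in both. In the tst mutant, loss of tst and any loss of a copy of neighbouring genes cannot be told apart.

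**Figure D3:**
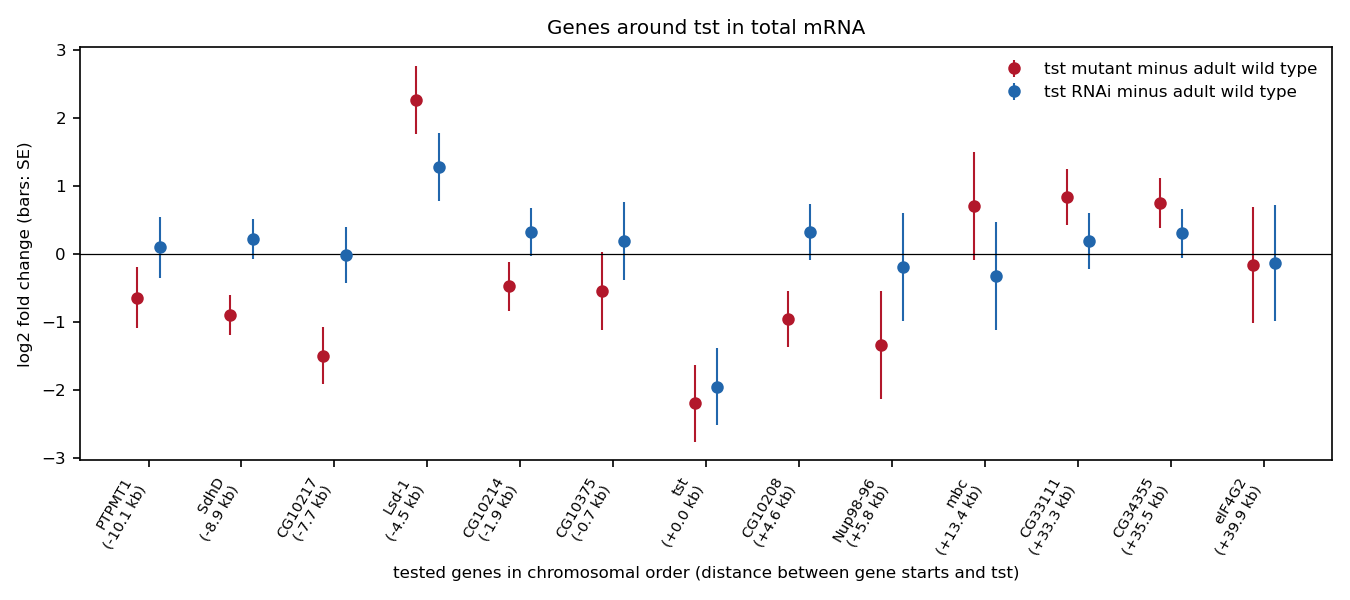
Log2 fold change against adult wild type (points) with standard error (bars) of tst and the 6 nearest tested genes on each side, in chromosomal order, with the distance between gene starts in kb, for the tst mutant (red) and tst RNAi (blue). Lsd-1 is at 2.27 in the mutant and 1.29 in RNAi, while tst is at -2.19 and -1.95.

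Jabba and Lsd-2, the abundant coat genes, were lower in young ovaries. Jabba fell in young wild type, with 133 and 139 TPM against 770 and 707 TPM in adult wild type. Its log2 fold change was -2.43 ± 0.46 (limma adjusted p = 0.00525). Lsd-2 was at 67.3 and 89.4 TPM in young wild type, below both adult libraries at 381 and 383 TPM, with a log2 fold change of -2.29 ± 0.77 and an adjusted p of 0.0812. Both fell in the fit with a replicate block, at adjusted p values of 0.00119 for Jabba and 0.0005 for Lsd-2, where 8.19% of all genes fell. Young ovaries thus held the lowest mean level of each among the 14 groups of 2.

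In the tst mutant Jabba was at 175 and 312 TPM, below both adult libraries, with a log2 fold change of -1.65 ± 0.46 (adjusted p = 0.064; with the block 0.0172). In tst RNAi it was at 707 and 601 TPM, within the range of adult wild type for the first library and below it for the other. The difference between mutant and RNAi was -1.48 ± 0.46 (adjusted p = 0.205). Lsd-2 followed with 173 and 219 TPM in the mutant and 328 and 315 TPM in RNAi, and its log2 fold change in the mutant was -0.97 ± 0.77 (adjusted p = 0.594).

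In inputs both fell in tst RNAi and in the pelo mutant. Jabba was at 840 and 658 TPM in control inputs, at 170 and 146 TPM in tst RNAi (log2 fold change -2.23 ± 0.23, limma adjusted p = 4.93e-05) and at 424 and 408 TPM in the pelo mutant (-0.84 ± 0.23, adjusted p = 0.0357). Lsd-2 was at 422 and 361 TPM, at 164 and 118 TPM (-1.48 ± 0.24, adjusted p = 0.000783) and at 177 and 216 TPM (-0.99 ± 0.24, adjusted p = 0.0196). No mutant input overlapped the control inputs for either gene. Both pelo calls were lost with library medians made equal (adjusted p = 0.0895 for Lsd-2 and 0.241 for Jabba), and when pelo input 1, pelo input 2 or control input 1 was left out. In total mRNA of the pelo mutant neither passed, with log2 fold changes of -0.34 ± 0.77 for Lsd-2 (95% interval -2.02 to 1.34) and -0.05 ± 0.46 for Jabba (-1.05 to 0.95), intervals that hold the input values. Heterozygote 1 and mutant 1 of pelo held 203 and 135 TPM of Lsd-2, and heterozygote 2 and mutant 2 held 447 and 419 TPM, so the replicate numbers differed more than the genotypes.

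The ratio of Lsd-1 to Lsd-2 put these changes on 1 scale. It ranged from 0.0069 in control input 1 to 1.07 in hfp mutant 1, with a median of 0.0928 over the 28 libraries of replicated groups. It was 0.646 and 0.780 in tst RNAi inputs, 0.217 and 0.0961 in the tst mutant, and 0.195 and 0.0840 in young wild type.

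Midway (mdy), the diacylglycerol acyltransferase that makes triglyceride in nurse cells, and brummer (bmm), the triglyceride lipase that breaks it down, passed no test in total mRNA. Their log2 fold changes there lay between -0.77 for mdy in the hfp mutant and 0.10 for bmm in the hfp mutant. In hfp mutants mdy was at 29.2 and 29.0 TPM against 61.9 and 40.8 TPM, without overlap. In young wild type bmm was at 56.1 and 41.5 TPM against 77.6 and 87.9 TPM, again without overlap (log2 fold change -0.76 ± 0.61, adjusted p = 0.507). Both fell in tst RNAi inputs. There mdy was at 22.8 and 22.9 TPM against 44.7 and 33.3 TPM in control inputs (-0.73 ± 0.25, limma adjusted p = 0.0378), and bmm was at 39.8 and 24.3 TPM against 72.6 and 79.6 TPM (-1.26 ± 0.34, adjusted p = 0.0129). The mdy call was lost with equal library medians (log2 fold change -0.28), and without tst RNAi input 1, tst RNAi input 2 or control input 1 (adjusted p = 0.144, 0.152 and 0.240). The bmm call was lost without tst RNAi input 2, control input 1 or control input 2 (adjusted p = 0.129, 0.0534 and 0.0627). In pelo mutant inputs the values were -0.54 ± 0.25 for mdy and -0.59 ± 0.34 for bmm, below the control inputs but short of the threshold. The ratio of mdy to bmm stayed between 0.200 and 0.942 in 28 libraries.

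LpR1 and LpR2 are lipophorin receptors of the low-density lipoprotein receptor family, which in Drosophila ovaries mediate uptake of neutral lipid. LpR2 was the more abundant of the pair, at 4.57 to 20.3 times the level of LpR1 in the 28 libraries of replicated groups and at 2.03 and 2.05 times in the bam RNAi input and the bam mutant. LpR2 fell in tst RNAi inputs, with 47.9 and 39.4 TPM against 133 and 102 TPM in control inputs (log2 fold change -1.40 ± 0.28, limma adjusted p = 0.0028). In pelo mutant inputs it was at 63.4 and 88.3 TPM, also below both controls (-0.63 ± 0.28, adjusted p = 0.158). LpR1 was at 8.47 and 7.02 TPM in tst RNAi inputs against 15.0 and 12.8 TPM (-0.77 ± 0.34, adjusted p = 0.0965). In total mRNA neither receptor passed a test. The tst mutant had 67.7 and 85.1 TPM of LpR2 against 135 and 118 TPM in adult wild type (-0.73 ± 0.70, adjusted p = 0.684), and tst RNAi had 101 and 93.9 TPM. The lowest group mean of LpR1 in total mRNA was that of the hfp mutant, at 3.68 and 5.46 TPM against 16.1 and 17.0 TPM in its heterozygote (-1.67 ± 0.68, adjusted p = 0.39). The groups did not overlap for LpR1 there, while LpR2 was at 32.6 and 111 TPM against 73.4 and 150 TPM and overlapped. Within replicate numbers 1 and 2 both receptors were lower in the mutant. The log2 differences were -1.86 and -1.48 for LpR1 and -1.15 and -0.43 for LpR2.

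Fatty acid synthesis genes passed no test in total mRNA or inputs. FASN1 is fatty acid synthase, ACC is acetyl-CoA carboxylase, which makes malonyl-CoA for it, and SREBP is the transcription factor that drives both in Drosophila. FASN1 was at 153 and 209 TPM in young wild type and at 99.6 and 87.0 TPM in adult wild type (log2 fold change 0.93 ± 0.83, adjusted p = 0.552). These groups did not overlap, and neither did SREBP at 136 and 123 TPM against 97.5 and 93.7 TPM (0.43 ± 0.58, adjusted p = 0.721). Only in a fit of these groups alone did FASN1 pass (adjusted p = 0.037). ACC was at 55.6 and 91.3 TPM against 54.5 and 59.0 TPM and overlapped. In the pelo set, FASN1 was at 17.1 TPM in heterozygote 1 and 171 TPM in heterozygote 2, and ACC at 12.2 and 90.8 TPM, so the spread of the 2 heterozygote libraries exceeded any difference between genotypes. In tst RNAi inputs the log2 fold changes were 0.36 ± 0.45 for FASN1, -0.19 ± 0.33 for ACC and -0.29 ± 0.29 for SREBP, with 95% intervals that all held 0. Control inputs held less FASN1 than adult wild type, at 22.6 and 52.2 TPM, although control preparation 1 is labelled with the same genotype and age, and the preparations were not tested against each other.

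Over the 14 groups of 2, levels of some members changed together. Pearson correlations of group mean log2 levels were 0.940 for FASN1 and ACC, 0.910 for ACC and SREBP, 0.875 for LpR1 and LpR2, 0.868 for Lsd-2 and Jabba, and -0.630 for Lsd-1 and Jabba. The groups share control genotypes and the input and polysome preparations, so these values are a description. Among 8702 genes compared in this way, the genes most like Lsd-1 were Gadd45 at 0.947, CG15209 at 0.938 and CG14688 at 0.935. For mdy they were XNP at 0.976, jub at 0.961 and CG9384 at 0.960, and for LpR2 CG31122 at 0.976, Sesn at 0.973 and Vrp1 at 0.972. For FASN1 they were Myo10A at 0.943, ACC at 0.940 and htt at 0.936, which places ACC as the second most similar profile of all genes.

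The order of group means differed between coat genes. Lsd-1 ran from 98.9 ± 9.63 TPM in tst RNAi inputs down to 3.86 ± 0.99 TPM in control polysomes, a span of 25.6-fold. Jabba ran from 749 ± 129 TPM in control inputs down to 136 ± 4.27 TPM in young wild type. Lsd-2 ran from 392 ± 43.1 TPM in control inputs down to 78.4 ± 15.7 TPM in young wild type. The spans of the other 7 genes were 2.65-fold for SREBP to 6.75-fold for FASN1. For every member most neighbouring groups in the order overlapped, and gaps between neighbours were not counted over all genes.

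Polysomes hold mRNA bound by several ribosomes, and each polysome library was set against the input of its own preparation. In controls 7 of the 10 members fell and 0 rose, where 38.4% of all genes fell and 3.25% rose. LpR2 was at 133 and 102 TPM in control inputs and 41.0 and 28.5 TPM in polysomes (log2 ratio -1.74 ± 0.25, limma adjusted p = 0.00201). Lsd-2 went from 422 and 361 TPM to 112 and 129 TPM (-1.69 ± 0.19, adjusted p = 0.00184), and LpR1 from 15.0 and 12.8 TPM to 6.13 and 2.54 TPM (-1.56 ± 0.31, adjusted p = 0.00476). Jabba, bmm, mdy and SREBP had log2 ratios of -1.07, -1.03, -0.97 and -0.79. The median over all genes was -0.55 in this contrast. With library medians made equal, that median moved to 0.24, and 3 members, Lsd-2, LpR1 and LpR2, still fell, beside 6.61% of all genes. The bmm call was lost without control preparation 2 (adjusted p = 0.107), as was that of SREBP (0.115), and the mdy call without control preparation 1 (0.0643). Without a preparation block the SREBP call was lost (adjusted p = 0.0569). Lsd-1 had a log2 ratio of -0.12 ± 0.26, with 3.16 and 4.56 TPM in polysomes.

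In the pelo mutant 1 member fell in polysomes, Lsd-2, and 0 rose, beside 5.3% and 0.607% of all genes. It was at 177 and 216 TPM in inputs and 99.0 and 108 TPM in polysomes (log2 ratio -0.91 ± 0.19, limma adjusted p = 0.0386), and the call was lost without the preparation block (0.0818), with equal library medians (0.164) and without either pelo preparation (0.106 and 0.403). In tst RNAi no member passed, beside 0.035% of all genes. There Lsd-2 was at 164 and 118 TPM in inputs and 152 and 108 TPM in polysomes, and LpR2 at 47.9 and 39.4 TPM and 63.0 and 50.8 TPM. Both LpR2 polysome values thus lay above their inputs, as in no other replicated genotype.

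The ratio of polysome to input differed between tst RNAi and control for 3 members, which were all higher in tst RNAi, beside 22.0% of all genes that were higher and 0.968% lower. LpR2 differed by 2.11 ± 0.35 (limma adjusted p = 0.0166), Lsd-2 by 1.57 ± 0.27 (adjusted p = 0.0166) and bmm by 1.17 ± 0.37 (adjusted p = 0.0471) on the log2 scale. The median of all genes was 0.70 in this contrast and -0.18 with equal library medians, and no member passed in that setting, beside 0.63% of all genes, with differences of 1.24 for LpR2, 0.70 for Lsd-2 and 0.30 for bmm (adjusted p = 0.103, 0.306 and 0.613). Without tst RNAi preparation 1 or 2 no member passed either, with adjusted p values of 0.165 and 0.189 for LpR2. Without control preparation 2 the bmm call was lost, with a difference of 0.71. The differences in that fit were 1.38 for Jabba, 1.23 for mdy and -1.39 for FASN1. For the pelo mutant 0 members passed, and 0.0% of the 8572 genes did. Its differences were 0.79 ± 0.35 for LpR2 and 0.78 ± 0.27 for Lsd-2, with adjusted p values of 0.377 and 0.374. Without control preparation 2 the pelo differences were 0.99 for Lsd-2, 1.01 for Jabba and -1.18 for FASN1. Each of these fits leaves an arm with 1 preparation, which is assumed to vary like the other groups. Some members passed only in such fits, and those calls are not counted here. With all preparations, FASN1, ACC and SREBP had differences of -0.46 to 0.63 in the 2 genotypes, and none passed. Eggshell transcripts summed to 93512 to 142599 TPM in control polysomes and to 13217 to 14524 TPM in tst RNAi polysomes, and since TPM values sum to the same total, their part in the lower ratios of other genes in controls was not tested.

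**Figure D4:**
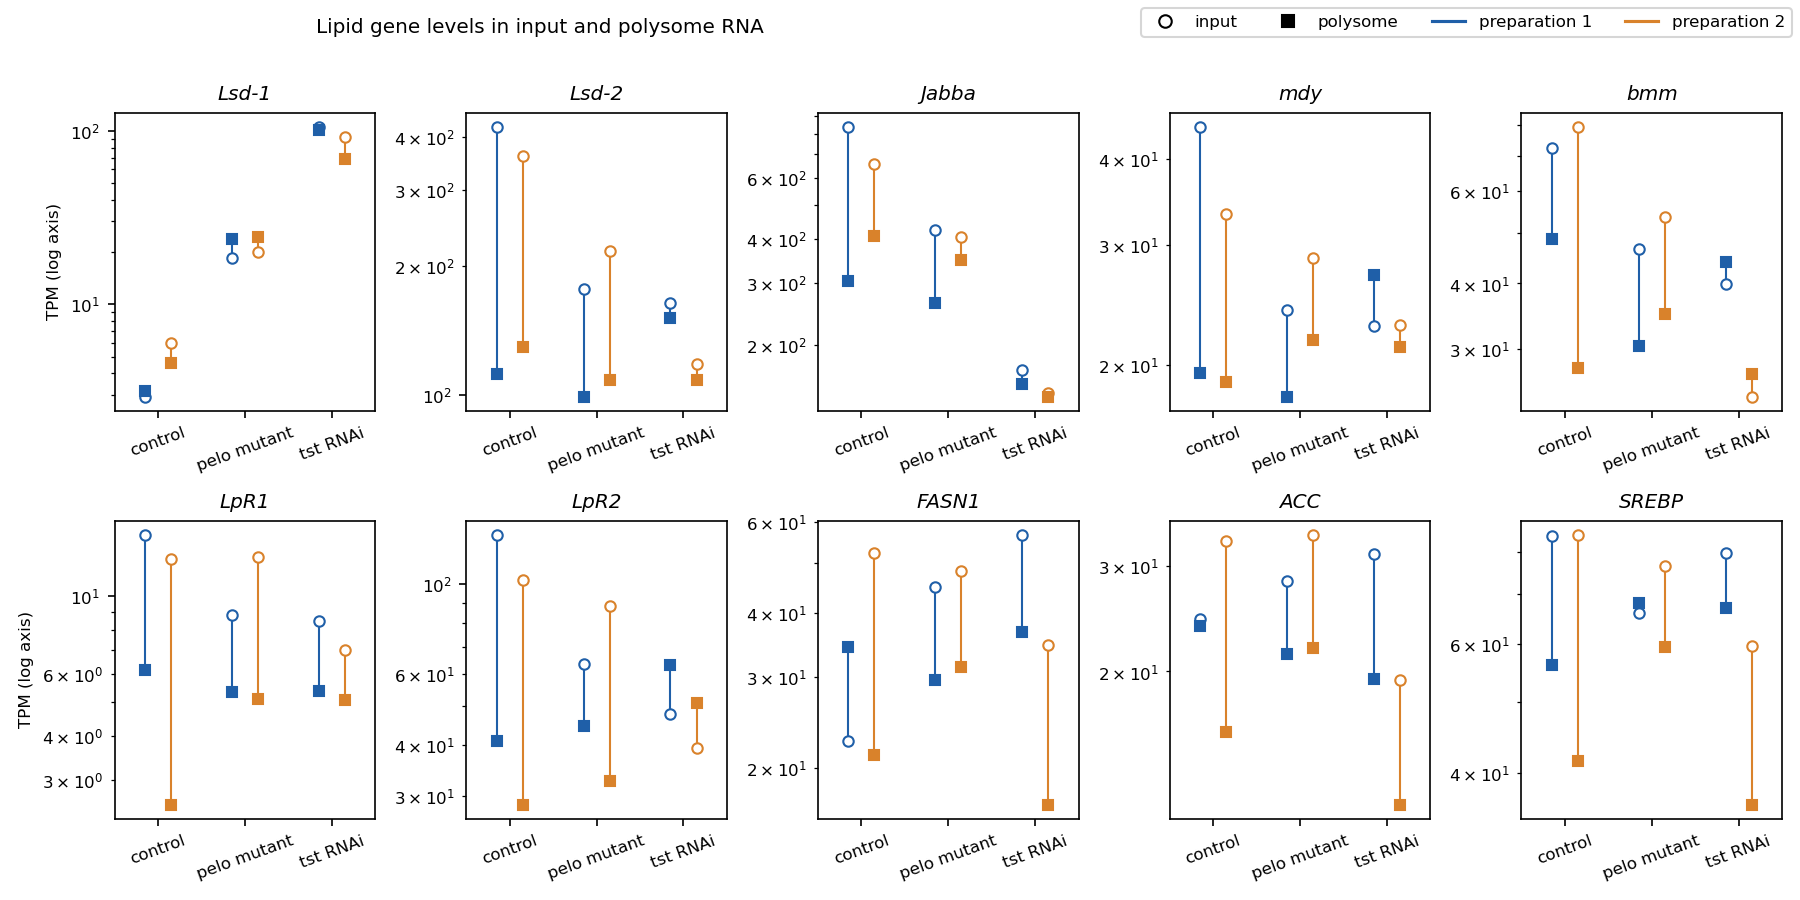
Levels of the 10 lipid genes in input RNA (open circles) and polysome RNA (filled squares) from controls, the pelo mutant and tst RNAi, in TPM on log axes that differ between panels, with a line joining the libraries of 1 preparation (blue, preparation 1; orange, preparation 2). Control lines for Lsd-2, LpR1 and LpR2 run steeply down, and in tst RNAi Lsd-2 is at 164 and 118 TPM in inputs and 152 and 108 TPM in polysomes.

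Ovaries with bam RNAi or a bam mutation gave single libraries, so their values have no replicate check and no test. Transcripts of bam itself stood at 3.10 TPM (RNAi input) and 5.61 TPM (mutant), against 65.1 and 40.1 TPM in control inputs. Jabba was at 11.0 TPM with bam RNAi (input) and at 16.7 TPM in the mutant library, against 840 and 658 TPM in control inputs and 133 and 139 TPM in young wild type. Lsd-2 was at 71.0 and 114 TPM, against 422 and 361 TPM. Lsd-1 was at 27.4 and 57.3 TPM, against 2.92 and 5.98 TPM. LpR2 was at 17.9 and 21.1 TPM, the lowest levels of this gene among all 31 libraries, and Jabba was also lowest in these libraries. More than 4-fold from both control inputs, on the log2(TPM + 1) scale, the bam RNAi input had 1 member higher (Lsd-1) and 3 lower (Lsd-2, Jabba and LpR2), beside 9.73% and 3.12% of all genes. The bam mutant had Lsd-1 higher and Jabba and LpR2 lower, beside 13.2% and 2.52% of all genes. FASN1 was at 51.5 TPM with bam RNAi and 165 TPM in the bam mutant, ACC at 23.1 and 62.4 TPM and SREBP at 75.5 and 121 TPM, so the bam mutant lay in or near the range of young wild type for all 3. Its 13 fat body markers summed to 3326 TPM, against 457 TPM in the bam RNAi input. Muscle sheath markers summed to 8707 TPM with bam RNAi and 7873 TPM in the mutant, and hemocyte markers to 2073 and 2134 TPM, all above control inputs. Eggshell markers, of late follicle cells, summed to 7406 TPM with bam RNAi and to 43181 TPM in the library labelled as the mutant. The part of these cell types in the member levels was not tested. In the library labelled bam RNAi polysome Jabba was at 289 TPM, a log2 ratio to its input of 4.59, in the library that also held osk.

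**Figure D5:**
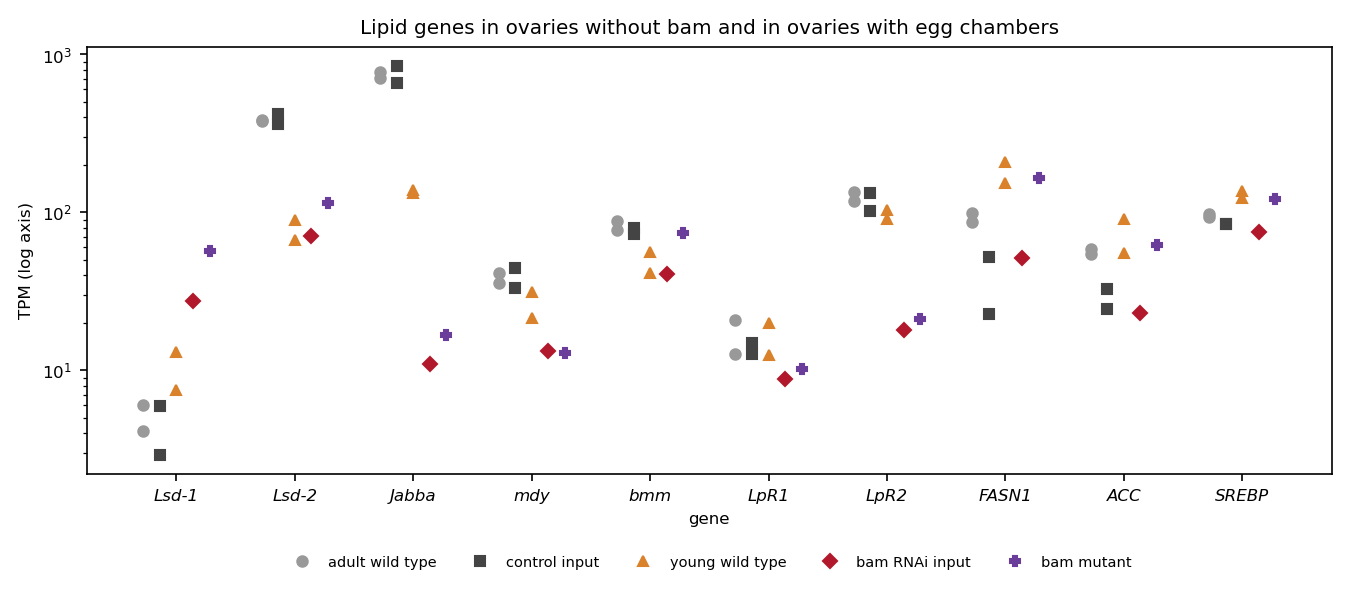
Levels of the lipid genes in TPM on a log axis in 2 libraries each of adult wild type, control inputs and young wild type and in the single bam RNAi input and bam mutant libraries. Jabba is at 11.0 and 16.7 TPM in the bam libraries against 840 and 658 TPM in control inputs, and Lsd-1 at 27.4 and 57.3 TPM against 2.92 and 5.98 TPM.

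Other genes of lipid metabolism were read from 5 lists without the members. They held 21 tested genes of droplet storage and turnover, 20 of fatty acid synthesis, 16 of beta-oxidation, 12 regulators, and, in total mRNA and inputs, 19 and 18 of lipoprotein and sterol uptake. In the tst mutant 1 droplet gene rose, Dgat2, a diacylglycerol acyltransferase (log2 fold change 1.87 ± 0.43, limma adjusted p = 0.0329), and 1 uptake gene, Snmp1, a CD36 family protein (2.02 ± 0.43, adjusted p = 0.0238). Over all genes 3.55% rose and 0.677% fell in that comparison. Snmp1 also rose in tst RNAi (2.30 ± 0.43, adjusted p = 0.0278), and no other listed gene passed there, beside 1.02% of all genes. The Dgat2 call was lost with equal library medians. In young wild type Snmp1 rose (2.99 ± 0.43), while 1 uptake gene (crq, -1.94), 1 synthesis gene (the elongase sit, -2.17) and 2 beta-oxidation genes (yip2, -1.48, and Acox57D-p, -1.72) fell, of which yip2 did not pass with equal library medians. Over all genes 7.93% rose and 3.16% fell in young wild type. No listed gene passed in total mRNA of the pelo or hfp mutants, where 0.226% and 0.993% of all genes did.

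Inputs of tst RNAi had 10 list genes higher and 18 lower, spread over all 5 lists, beside 18.7% of all genes that rose and 21.3% that fell. Among droplet genes 5 fell and 1 rose, with falls of Agpat1 (-2.88 ± 0.40, limma adjusted p = 0.000318), Agpat4 (-0.96) and Agpat2 (-0.78), which are acylglycerolphosphate acyltransferases. Among uptake genes 4 fell and 5 rose, and yl, the yolk protein receptor of the oocyte, fell by 1.91 ± 0.20 on the log2 scale (adjusted p = 6.36e-05), with pes at -1.97 and Fatp3 at -1.99. Among synthesis genes 4 fell and 1 rose (bgm -1.73, sit -1.68, Baldspot -0.85), and among beta-oxidation genes 3 fell and 1 rose (Acox57D-p -2.16, whd -1.14, Acox57D-d -0.96). Of the regulators 2 rose and 2 fell, led by sugarbabe (sug), a sugar-responsive transcription factor, at 2.96 ± 0.29 (adjusted p = 4.26e-05), with bigmax at 0.77 and usp at -1.29. With equal library medians, Agpat4, Agpat2, Baldspot and Acox57D-d no longer passed. Pelo mutant inputs had fewer calls, among them sug at 2.08 ± 0.29, Snmp1 at 2.71 ± 0.40, Acbp2 at 2.40 ± 0.43 and apolpp, the lipophorin precursor made in fat body and also 1 of the fat body markers, at 1.97 ± 0.35. In that comparison 0 droplet genes rose and 2 fell (Agpat1 -1.37, BicD -1.08), and of the synthesis genes FASN2 rose (0.99) and sit fell (-1.28). Over all genes 10.3% rose and 1.85% fell in pelo mutant inputs.

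In control polysomes 11 of 21 droplet genes, 6 of 18 uptake genes, 8 of 20 synthesis genes, 1 of 16 beta-oxidation genes and 10 of 12 regulators fell against their inputs, beside the 38.4% of all genes that fell. With equal library medians these counts were 4, 1, 0, 0 and 3, beside 6.61% of all genes. BicD, a dynein adaptor that takes part in droplet transport in embryos, was at -1.77 ± 0.23 (limma adjusted p = 0.00184), the fatty acid elongase gene Baldspot at -1.48 ± 0.20 (adjusted p = 0.00184) and foxo, a transcription factor of insulin signalling, at -2.02 ± 0.25 (adjusted p = 0.00184). In tst RNAi the polysome ratio was higher than in controls for 5 droplet genes, 2 uptake genes, 1 synthesis gene and 6 regulators, and lower for none of these lists, beside 22.0% of all genes that were higher and 0.968% that were lower. BicD differed by 1.68 ± 0.33 (adjusted p = 0.0173), pes by 1.59 ± 0.33 (adjusted p = 0.018) and usp by 1.72 ± 0.35 (adjusted p = 0.0176). With equal library medians none of these 14 differences passed.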

How the data were processed

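The data are RNA-seq of poly(A) RNA from whole ovaries, extracted with TRIzol or phenol-chloroform and made into directional NEXTflex libraries after DNase, per the labels' protocols. The submitters' processing notes name the dm6 build, the aligner HISAT2 2.0.5 and the counter featureCounts 1.5.1, while annotation and formula behind TPM are not stated. The values that the authors deposited are log2 TPM, per the file headers. Raised from log2 and less 0.5, each column summed to about the same total, so they were read as log2(TPM + 0.5), turned back to TPM, and tested as log2(TPM + 1), which understates changes of low genes. How reads of overlapping genes were assigned is not known.

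Genes with at least 1 TPM in 2 libraries of a fit were tested with limma 3.58.1 in R 4.3.3, with a trend in the variance, 8864 in total mRNA (16 libraries in 1 fit) and 8572 in inputs and polysomes (12 libraries in 1 fit). P values were adjusted by Benjamini-Hochberg over all genes, with a threshold of 0.05. Polysome ratios had the preparation as a block, since inputs and polysomes of a preparation are paired by the labels. Input comparisons had no such term, so their standard errors pool the spread of inputs and polysomes as if these were independent. The median standard error was 0.472 in total mRNA, 0.303 in inputs, 0.273 in polysome ratios and 0.386 in their differences. Differences between libraries with replicate numbers 1 and 2 correlated at 0.62 to 0.766 among the wild-type and tst groups, whose strand label also differs by number. They correlated at 0.663 between the pelo mutant and its heterozygote and at 0.727 between the hfp mutant and its heterozygote. Between pelo and hfp groups they correlated at only 0.173 to 0.382. The number was therefore taken to pair these samples. The main fit of total mRNA leaves this pairing out, and a block for it is the alternative fit. That block has 1 term shared by the pelo and hfp groups, so it may not remove the pairing within each of them.

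The members, the 5 pathway lists and the 6 marker lists were chosen with earlier results of these data known. Named genes are the members, tst, pelo, hfp and bam, the 6 tested genes nearest to tst on each side, up to 3 called genes of each list and comparison with the smallest adjusted p, and the 3 genes most like Lsd-1, mdy, LpR2 and FASN1 by Pearson correlation of group means. Genes named for markers of cell types, and those whose call changed with the scaling, were chosen after their values were seen. Symbols were matched to RefSeq Release 6, 8664 directly and 555 by an older name, and 32 did not match. The bam mutant table shares 9246 of 9251 names with the series table. Scripts were tested on simulated data. Alternatives were a pseudocount of 0.5, no filter, equal library medians, a fit of only the groups compared, the replicate block, and each library or preparation left out. Python 3.11.15, pandas 2.3.3 and matplotlib 3.10.9 were used for tables and figures.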

Additional observations from a re-analysis of the deposited data

Results flagged for a closer look

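The change from input to polysome differed between tst RNAi and control for 3 members by a test of the difference itself. The difference on the log2 scale was 2.11 for LpR2, 1.57 for Lsd-2 and 1.17 for bmm, with both tst RNAi ratios above both control ratios for all 3. The median over all genes was 0.70 in the same contrast. With equal library medians the differences were 1.24, 0.70 and 0.30, and none passed (limma adjusted p = 0.103, 0.306 and 0.613).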

How the results depend on the processing

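Counts of members called at an adjusted p under 0.05 moved with the fit in these cases. The share of all genes called in a fit, in either direction, is in brackets. It is not given for fits without the filter or of only the groups compared. In young against adult wild type the count was 1 (11.1%), and 2 with equal library medians (13.5%). It was 3 with only the groups compared and 2 with the replicate block (20.6%). In the tst mutant it was 1 (4.23%), and 2 with the replicate block (11.2%). It was 0 with only the groups compared, where the limma adjusted p of Lsd-1 was 0.0695. The Lsd-1 call was also lost without tst mutant 1 or either adult wild-type library, with log2 fold changes of 1.87 to 2.50. In hfp it was 0 (0.993%), and without hfp mutant 2 the log2 fold change of Jabba was -1.84. In tst RNAi inputs it was 6 (40.0%), and 5 with equal library medians (38.4%), where mdy was lost. It was 7 with only the groups compared (LpR1 gained, limma adjusted p = 0.0273). Calls of mdy and bmm were lost when some single libraries were left out. In pelo mutant inputs it was 3 (12.2%), and 1 with equal library medians (14.7%). Calls of Lsd-2 and Jabba were lost when some single libraries were left out. In control polysomes it was 7 (41.7%), and 3 with equal library medians (22.1%) and 4 with only the groups compared. The mdy call was lost without control preparation 1, and those of bmm and SREBP without control preparation 2. In pelo mutant polysomes it was 1 (5.9%), and 3 with only the groups compared. It was 0 without the filter, with equal library medians (0.0117%) and with no replicate block (0.0%). The call was also lost without either pelo preparation. In tst RNAi polysomes it was 0 (0.035%), and 3 with only the groups compared. For the difference of ratios in tst RNAi it was 3 (23.0%), and 0 with equal library medians (0.63%). It was 2 without the filter, with only the groups compared and with no replicate block (12.9%), with bmm lost each time. All 3 calls were lost without tst RNAi preparation 1 or 2. For the pelo mutant it was 0 (0.0%). Without control preparation 2 the pelo differences were 0.99 for Lsd-2, 1.01 for Jabba and -1.18 for FASN1. Leaving out a library or preparation leaves its group with 1, which is assumed to vary like the other groups. Some members passed only in such fits, and those calls are not counted here. The cause of these moves was not tested.

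No member changed direction among called values. The pseudocount of 0.5 kept each of the 130 member values on its side of the threshold, and the missing filter changed 2. The replicate block as a pairing of inputs, where same-numbered libraries of different genotypes did not deviate together (correlations of -0.227 to -0.007), ended 1 call, Jabba in pelo mutant inputs (adjusted p = 0.0507), and changed no other call in inputs. In total mRNA the replicate block added Lsd-2 in young wild type and Jabba in the tst mutant and changed no other call of a member. Without a block in the polysome fits, 3 member calls were lost, of SREBP in controls, Lsd-2 in the pelo mutant and bmm in the difference of ratios for tst RNAi. With 2 libraries a group and an unknown depth, small differences were not detectable at the standard errors given.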
